A study of Mus musculus with 8 samples.

Results

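Transcripts of 8 genes were followed through the immune cells of the mouse brain. Cybb, Cyba, Ncf1, Ncf4 and Rac2 encode parts of the phagocyte NADPH oxidase, Padi4 encodes the enzyme that citrullinates histones, Sod2 encodes mitochondrial superoxide dismutase, and Acod1 encodes the mitochondrial enzyme that makes itaconate. They were chosen by name, as 8 of the 32285 genes counted in each library, and although no measured value entered the rule, earlier results of these data were known when they were chosen.

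The data were counts of unique molecular identifiers (UMIs, tags that mark single captured RNA molecules) from 8 droplet-based 5′ libraries of single brain cells sorted for CD45.2, the leukocyte antigen. The mice were C57BL/6J wild type (WT) or App NL-G-F, a knock-in of mutated human-type amyloid precursor protein sequence at the mouse App locus that the App NL-G-F controls carried too. The labels give an age of 16 weeks. Each genotype had 1 library for control, acute colitis (2% dextran sulfate sodium, DSS, in the drinking water for 7 days), chronic colitis (3 cycles of 2% DSS for 5 days alternating with plain water) and food allergy (ovalbumin with alum into the peritoneum, then ovalbumin by mouth). A CD45 antibody was given intravenously to all mice ahead of perfusion, and the brain cells were marked with antibody hashtags and then sorted. The labels do not tie a hashtag to a mouse, so what is called a hashtag group below is a set of cells of 1 library with the same hashtag, and it is not known to be 1 animal. The sample size stated for App NL-G-F chronic colitis is 2 mice, and 4 mice for WT control and for the other App NL-G-F libraries. Since 4 hashtag groups of App NL-G-F chronic colitis are used below, groups of that library share animals. With 1 library per condition, library and condition cannot be told apart.

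After cell calling 50120 cells remained. WT acute colitis had the fewest cells (4878) and UMIs (25625217), and App NL-G-F acute colitis the most (7199 cells and 54618574 UMIs). Pairs of libraries shared 34 to 72 cell barcodes. Cells were clustered without the 8 genes and without the oxidase, antioxidant and peptidylarginine deiminase genes, and classes were named from marker genes. There were 2876 neutrophil precursors, 5261 neutrophils, 1789 monocytes, 2291 macrophages and 31045 lymphocytes. All 12 neutrophil markers were found in at least 10% of the neutrophils, all 10 precursor markers in precursors, all 9 monocyte markers in monocytes and all 11 macrophage markers in macrophages. No cluster qualified as microglia. In neutrophils, 6 of 10 precursor markers reached that share, and the whole list summed to 63744 CPM, led by the secondary-granule gene Ngp (40262 CPM). So did 3 of 9 monocyte markers (1693 CPM, led by Ly6c2 with 1322 CPM) and 2 of 11 macrophage markers (422 CPM, led by Apoe with 202 CPM). None of 10 CD4 T cell markers did (47.8 CPM), the CPM again being sums over whole lists. In precursors, 11 of 12 neutrophil markers reached that share, and that list summed to 43464 CPM, against 27277 CPM for the precursor list. What part these markers of other classes had in the levels below was not tested. Among macrophages 28.6% of cells carried several hashtags. Median UMIs per neutrophil were lowest in WT acute colitis (2173) and highest in App NL-G-F acute colitis (12544).

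In phagocytes, Cybb and Cyba together form the membrane-bound core of the oxidase (cytochrome b558), which moves electrons from NADPH to oxygen and makes superoxide. Cytosolic subunits, among them those encoded by Ncf1 and Ncf4, and the small GTPase encoded by Rac2 must join this core before it works. Superoxide and its products serve killing of microbes and are one trigger for neutrophil extracellular traps (NETs), webs of chromatin and granule proteins in whose formation PAD4, the product of Padi4, loosens chromatin. Sod2 turns superoxide into hydrogen peroxide inside mitochondria, and Acod1 is switched on in myeloid cells by inflammatory signals.

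Levels are given as CPM, the UMIs of a gene scaled to the summed UMIs of all genes in the same cells (the CPM of all genes together come to the same total in every sample). They are compared between cells for 1 gene at a time, since capture at the 5′ end differs between genes. Intervals cover counting error only.

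The membrane subunits were found in all myeloid classes. Cybb, the catalytic subunit (chromosome X, 9435252 to 9487771, GRCm38, minus strand), lay between 581 and 896 CPM in the neutrophils of the 8 libraries, with a median of 731 CPM. Its medians were 714 CPM in monocytes, 354 CPM in macrophages, 255 CPM in precursors and 42.8 CPM in lymphocytes. Neutrophils stood above monocytes in 7 of 8 libraries, but the ranges overlapped, whereas monocytes stood above macrophages in all 8 libraries without overlap. Cyba, which stabilises the catalytic subunit (chromosome 8, 122424776 to 122432930, minus strand), followed the same order. It had a median of 2130.4 CPM in neutrophils (1644 to 3000.1 CPM), 2009 CPM in monocytes, 1267 CPM in macrophages, 1111 CPM in precursors and 725 CPM in lymphocytes.

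Against monocytes, the cytosolic subunits leaned more to neutrophils than the membrane subunits did. Ncf1, the organiser subunit p47phox (chromosome 5, 134220053 to 134229625, minus strand), lay between 476 and 743 CPM in neutrophils and had a median of 640.3 CPM. Its medians were 191 CPM in precursors, 139 CPM in monocytes, 118 CPM in macrophages and 28.0 CPM in lymphocytes, and no library's neutrophils came down to the range of any other class. Ncf4, the p40phox subunit (chromosome 15, 78244801 to 78262580, plus strand), had medians of 496 CPM in neutrophils (355 to 694 CPM), 336 CPM in monocytes, 271 CPM in precursors, 109.8 CPM in macrophages and 103 CPM in lymphocytes. Neutrophils were above monocytes within all 8 libraries, although the ranges overlapped between libraries. Macrophages and lymphocytes did not differ beyond their spread, with macrophages higher in 4 of 8 libraries.

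Rac2, the GTPase of blood cells (chromosome 15, 78559167 to 78572783, minus strand), differed from the other subunits in its second-ranked class. Neutrophils had 1481 to 2736 CPM with a median of 2077 CPM, and lymphocytes came next with a median of 1194 CPM and no overlap. Precursors (787 CPM), monocytes (677 CPM) and macrophages (563 CPM) had lower medians, with overlapping ranges between neighbours in that order.

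Padi4 (chromosome 4, 140745865 to 140774236, minus strand) was far higher in neutrophils than in the other 4 classes, although 27.9% of precursors and 16.3% of monocytes also held a UMI of it. Its level in neutrophils was 628 CPM in WT control, 267 CPM in WT acute colitis, 372 CPM in WT chronic colitis and 392 CPM in WT food allergy. In App NL-G-F neutrophils it was 514 CPM in control, 562 CPM in acute colitis, 542 CPM in chronic colitis and 473 CPM in food allergy. The lowest of these, WT acute colitis, remained above every precursor library, whose median was 33.0 CPM. Monocytes had a median of 30.3 CPM, lymphocytes 3.97 CPM and macrophages 2.32 CPM. After each cell was thinned to 1000 UMIs, a median of 33.3% of neutrophils per library held a Padi4 UMI against 0.121% of T cells, which served as background. The thinned median was 4.30% in precursors and 2.35% in monocytes, whose shares above are unthinned and pooled over libraries. Unthinned, the neutrophil share was 75.1%.

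Acod1 (chromosome 14, 103046977 to 103056573, plus strand) was highest in neutrophils in most libraries, but its level there spread widely. In WT neutrophils it was 342 CPM in control, 855 CPM in acute colitis, 258 CPM in chronic colitis and 435 CPM in food allergy. In App NL-G-F neutrophils it was 129 CPM in control, 9.17 CPM in acute colitis, 175 CPM in chronic colitis and 273 CPM in food allergy. The 4 WT libraries and App NL-G-F food allergy were above 250 CPM, and App NL-G-F acute colitis stood far below all the others. The App NL-G-F acute colitis value rests on 158 UMIs in 1378 cells (95% exact Poisson interval 7.79 to 10.7 CPM). Medians in the other classes were 3.25 CPM in macrophages, 1.48 CPM in monocytes, 1.13 CPM in precursors and 0.511 CPM in lymphocytes. The ranges overlapped, since macrophages reached 15.1 CPM, and monocytes 28.3 CPM in WT control. Neutrophils were above macrophages in 7 of 8 libraries, the exception being App NL-G-F acute colitis, whose macrophages had 10.4 CPM (19 UMIs). Thinned to 1000 UMIs, a median of 17.8% of neutrophils (1.70% to 43.5%) and 0.0589% of T cells held an Acod1 UMI.

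Sod2 (chromosome 17, 13006846 to 13040063, plus strand) did not mark any of the 5 classes. Its median level was 103 CPM in monocytes, 98.1 CPM in precursors, 76.3 CPM in macrophages, 65.9 CPM in lymphocytes and 63.6 CPM in neutrophils, with overlapping ranges between all neighbours in that order. The neutrophils showed the broadest range, with the lowest value in App NL-G-F acute colitis (27.9 CPM) and the highest in WT acute colitis (128 CPM). The plot of CPM by class shows these orders gene by gene.

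**Figure D1:**
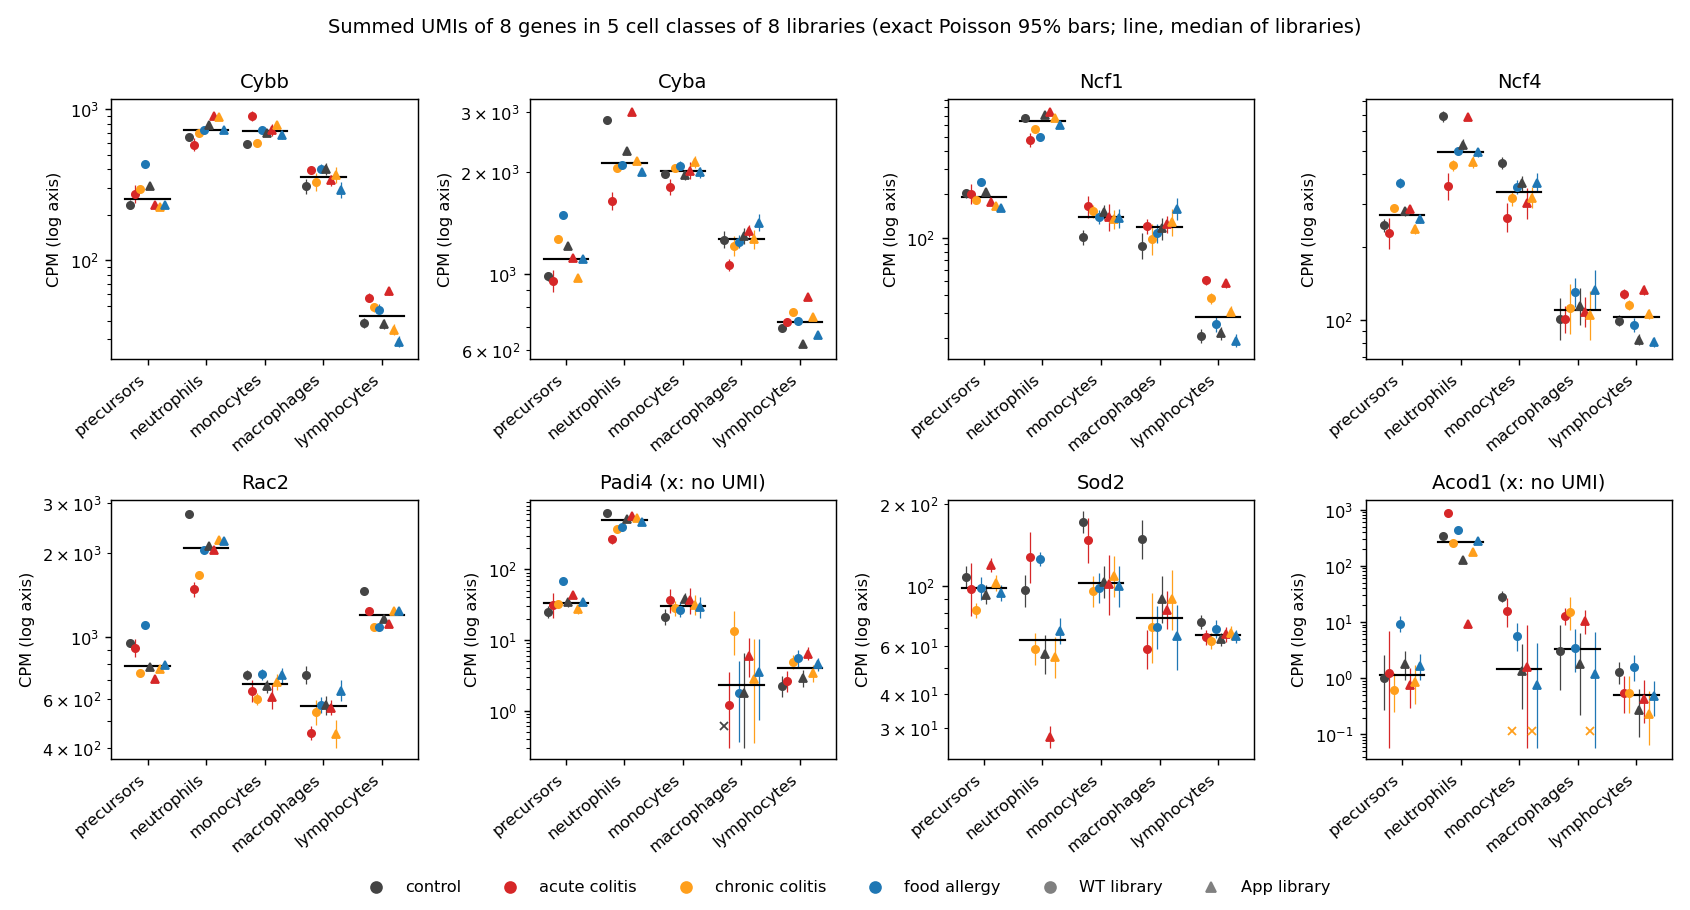
Level of each gene (CPM, log axis) in neutrophil precursors, neutrophils, monocytes, macrophages and lymphocytes; each point is 1 of 8 libraries (circles WT, triangles App NL-G-F, colours condition), bars are exact Poisson 95% intervals, lines are medians and crosses mark classes without a UMI. The library values of Padi4, Ncf1 and Rac2 in neutrophils do not overlap those of any other class, and Acod1 in neutrophils runs from 9.17 to 855 CPM.

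Differences between classes were then tested over libraries with edgeR on summed UMIs, with the library as a block and p-values adjusted over the 11827 genes tested. Scaling mattered here. The 12 neutrophil marker genes alone took a median of 38.2% of neutrophil UMIs (27.4% to 41.9%), which lowers the CPM of all other neutrophil genes. The TMM scaling factors, which allow for this, had a median of 0.534 in neutrophils and of 1.13 to 1.21 in the other classes. The median ratio of all genes against precursors was 0.15 log2 units with TMM and -1.08 on plain totals, so both are given. Plain totals were tried after seeing the data.

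Against precursors, all 8 genes were higher in neutrophils with TMM scaling. This is a comparison in which 80.5% of all genes were called, and 43.7% of all genes were higher and 36.8% lower in neutrophils. The median log2 ratio of the 8 genes was 2.58, against 0.15 over all genes tested. Padi4 was 4.95 ± 0.25 (SE) log2 units higher (edgeR, adjusted p = 2.32e-18) and Acod1 8.06 ± 0.56 (edgeR, adjusted p = 5.19e-15). Ratios of the oxidase genes were 2.92 for Ncf1, 2.66 for Cybb, 2.50 for Rac2, 2.21 for Cyba and 2.13 for Ncf4, and that of Sod2 was 0.73 ± 0.16 (edgeR, adjusted p = 0.000127). On plain totals 7 of the 8 were higher, where 84.3% of genes were called (18.4% higher, 65.9% lower), and Sod2 was lower (log2 ratio -0.46, edgeR, adjusted p = 0.0177). Its direction thus depends on the scaling. The class ratio also pools neutrophils that differed in Sod2, as described below. Over all libraries, 1 neutrophil cluster had 28.7 CPM and the other 101 CPM, against 102 and 70.3 CPM in the precursor clusters.

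Against monocytes, all 8 genes were again higher in neutrophils with TMM, where 68.7% of genes were called, 34.2% being higher and 34.4% lower. The ratios were 5.04 ± 0.26 for Padi4, 6.44 ± 0.55 for Acod1, 3.26 ± 0.19 for Ncf1 and 2.70 ± 0.12 for Rac2 (log2, SE). They were 1.67 for Ncf4, 1.25 for Cyba, 1.17 for Cybb and 0.40 for Sod2. On plain totals 5 were higher, where 79.6% of genes were called (11.5% higher, 68% lower). Cybb (0.07, edgeR, adjusted p = 0.600) and Cyba (0.16, edgeR, adjusted p = 0.0876) no longer passed, and Sod2 was lower in neutrophils (-0.64, edgeR, adjusted p = 0.00179). The membrane subunits thus passed under 1 of the scalings, and Ncf1, Ncf4 and Rac2 under both.

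Monocytes exceeded macrophages for 6 of the 8 genes, where 53.4% of genes were called and 22.1% were higher. Padi4 had the largest ratio among the 8 (3.29 ± 0.37), followed by Ncf4 (1.64 ± 0.16), Cybb (1.03 ± 0.15) and Cyba (0.70 ± 0.12). Sod2 (0.51, edgeR, adjusted p = 0.0118) and Rac2 (0.30, edgeR, adjusted p = 0.0242) had smaller ratios, and Ncf1 (0.28, edgeR, adjusted p = 0.208) and Acod1 (-0.02, edgeR, adjusted p = 0.988) did not pass. On totals 52.9% of genes were called, 20.2% being higher. Against lymphocytes all 8 were higher in neutrophils (83.1% of genes called, 37.1% higher), from 1.28 for Sod2 and 1.97 for Rac2 to 8.10 for Padi4 and 9.86 for Acod1. On totals, where 90.6% of genes were called and 16.2% were higher, 7 of the 8 were higher and Sod2 did not pass (0.12, edgeR, adjusted p = 0.510).

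**Figure D2:**
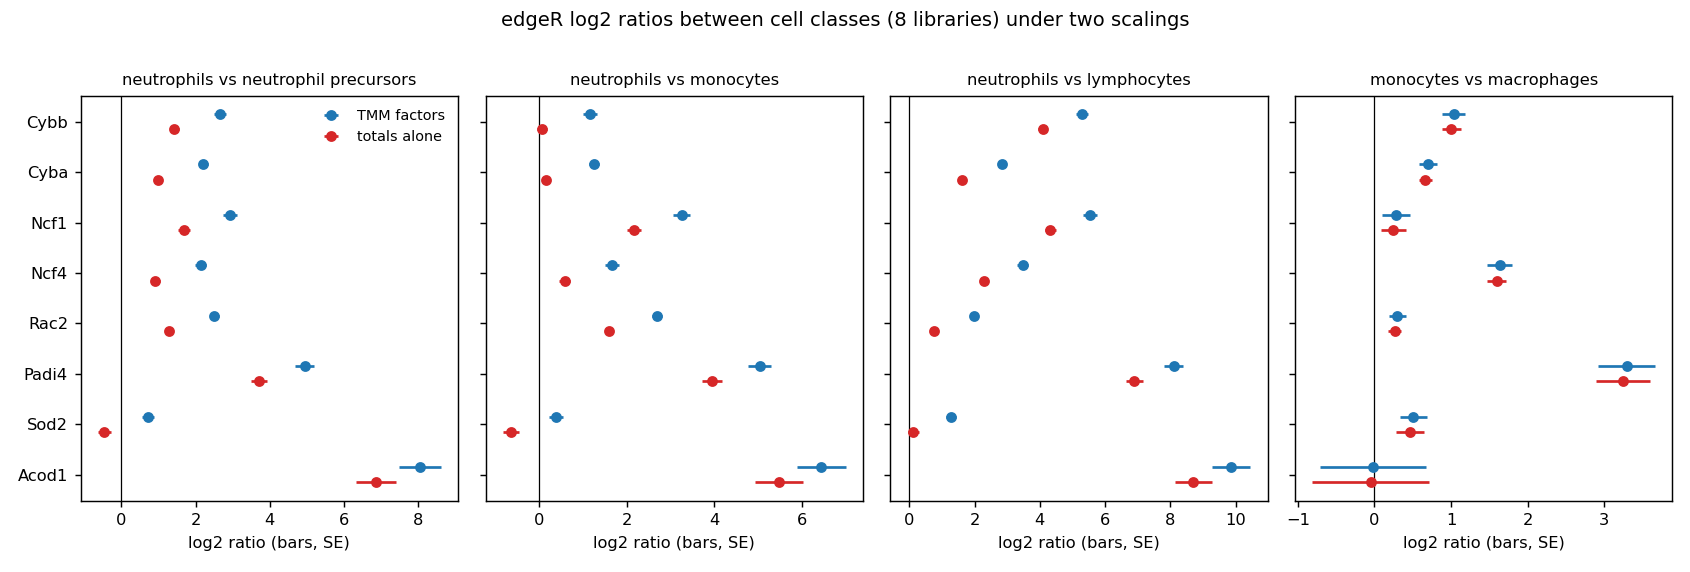
Log2 ratios (x axis, bars are SE) of the 8 genes between cell classes from edgeR over 8 libraries, with TMM factors (blue) and on totals alone (red). Sod2 changes side of zero between the scalings against precursors (0.73 and -0.46) and against monocytes (0.40 and -0.64).

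Of the 8 genes in the wider list of NADPH oxidase subunits, 5 are the members described above, so the counts of that list are largely theirs. With TMM, 8 of 8 were higher in neutrophils than in precursors (median log2 ratio 2.35, all genes 0.15), beside 43.7% of all genes. On totals 6 were higher and 2 lower, beside 18.4% and 65.9% of all genes. The 2 lower ones, Rac1 and Cybc1, a chaperone of the oxidase core, are not members. Their ratios were 0.81 and 0.31 with TMM and -0.41 and -0.93 on totals, so their direction depends on the scaling. Rac1, the widely used relative of Rac2, had its highest median in monocytes (612 CPM) and 334 CPM in neutrophils. Of 7 regulators 6 were higher and 1 lower than in precursors with TMM, beside 43.7% and 36.8% of all genes. On totals 2 were higher and 3 lower, beside 18.4% and 65.9%. The one lower with TMM was Nrros, whose product lowers the level of the oxidase core (-0.34 ± 0.10, edgeR, adjusted p = 0.00272). None of the 8 genes of other NADPH oxidases passed the filter on low counts, and their medians reached 1.9 CPM at most (Noxo1 in macrophages).

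Antioxidant enzymes went both ways. Of 18 tested, 11 were higher and 6 lower in neutrophils than in precursors with TMM (median 0.57, all genes 0.15), beside 43.7% higher and 36.8% lower over all genes. On totals 6 were higher and 11 lower, beside 18.4% and 65.9% over all genes. Prdx5, a peroxiredoxin, had a ratio of 2.93 ± 0.13, Txn1, thioredoxin, 2.15 ± 0.09, and Gsr, glutathione reductase, 1.99 ± 0.16. Lower in neutrophils were Prdx1 (-2.05) and Prdx2 (-1.71), peroxiredoxins of the cytosol, Sod1 (-1.30), the cytosolic superoxide dismutase, and Cat (-0.37), catalase. Prdx1 went from a median of 644 CPM in precursors to 65.6 CPM in neutrophils, and Prdx5 from 749 to 2584 CPM.

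The NET-related genes also went both ways. Of 10 tested, 4 were higher in neutrophils than in precursors (Padi4, Serpinb1a, Gsdmd and Dnase1l3) and 5 were lower, with a median log2 ratio of -1.16, beside 43.7% higher and 36.8% lower over all genes. On totals 3 were higher and 7 lower, beside 18.4% and 65.9%. Dnase1l3, a secreted DNase, rests on a median of 0.779 CPM in neutrophils. The 4 azurophil granule genes, made early in neutrophil development, were among the lower ones. Mpo, myeloperoxidase, had 4078 CPM in precursors and 3.47 CPM in neutrophils (-7.70 ± 0.62), Elane, neutrophil elastase, 3743 and 5.24 CPM (-7.63 ± 0.62), Ctsg, cathepsin G, had a ratio of -7.24 ± 0.52 and Prtn3, proteinase 3, of -5.72 ± 0.50. Hmgb1, a chromatin protein, was the fifth lower gene (-1.81 ± 0.12). Serpinb1a, an inhibitor of these proteases, rose from 383 to 667 CPM (2.16 ± 0.23), and Gsdmd, the pore protein gasdermin D, was higher with TMM (1.03 ± 0.12) and lower on totals (-0.20), with medians of 47.5 CPM in neutrophils and 56.1 CPM in precursors. The precursor clusters were named from Mpo, Elane, Ctsg and Prtn3, so the fall of these 4 describes the classes and is no independent test. Of 15 genes in the list of Acod1 and other NF-kB-induced genes, 14 were higher and 0 lower (median 3.31), among them Cxcl2 (6.45 ± 0.58) and Il1b (7.31 ± 0.59), a neutrophil-attracting chemokine and interleukin-1β. On totals 12 were higher and 3 lower. Of 10 immediate-early genes, 10 were higher with TMM and 7 on totals.

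Against monocytes 34.2% of all genes were higher and 34.4% lower with TMM, and 11.5% and 68% on totals, and the antioxidant and NET-related counts should be read beside these shares. The lists gave, with TMM, 7 of 8 oxidase subunits higher, 5 of 7 regulators higher and 1 lower, 10 of 18 antioxidant enzymes higher and 6 lower, 4 of 10 NET-related genes higher and 5 lower, and 11 of 15 NF-kB-induced genes higher. On totals the counts, higher and lower, were 4 and 2 for oxidase subunits, 2 and 5 for regulators, 5 and 10 for antioxidant enzymes, 2 and 6 for NET-related genes and 8 and 6 for NF-kB-induced genes. Of the immediate-early genes 8 were higher with TMM, and 0 were higher and 2 lower on totals.

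The 8 genes were next compared along the neutrophil lineage, which falls into 4 clusters, namely azurophil-granule precursors (2382 cells, led by Elane, Mpo and Prtn3), secondary-granule precursors (494 cells, led by Fcnb, Camp and Cebpe), Olfm4/Mmp9 neutrophils (2431 cells, led by Olfm4, Asprv1 and Ifitm6) and Cxcl2/Il1b neutrophils (2830 cells, led by G0s2, Acod1 and Cxcl2). These values are a description, without tests between clusters or a fitted trajectory, and cluster sizes are not compared. Pooled over libraries, Cybb had 195 CPM in azurophil precursors, 884 CPM in secondary-granule precursors, 889 CPM in Olfm4/Mmp9 neutrophils and 709 CPM in Cxcl2/Il1b neutrophils. Most of its difference thus lay between the precursor clusters. Cyba (1015, 2287, 2783 and 2200.1 CPM in the same order), Ncf4 (239, 582, 639 and 514 CPM) and Rac2 (683, 1741, 2044 and 2100.05 CPM) also differed most between the precursor clusters, and Ncf1 (144, 509, 740 and 554 CPM) was highest in Olfm4/Mmp9 neutrophils. Among the later clusters the order of Cybb, Cyba, Ncf4 and Rac2 depends on the pooling. The medians over libraries in secondary-granule precursors, Olfm4/Mmp9 neutrophils and Cxcl2/Il1b neutrophils were 882, 862 and 716 CPM for Cybb and 2265, 2024 and 2097 CPM for Cyba. They were 560.3, 451 and 511 CPM for Ncf4 and 1805, 1892 and 1887 CPM for Rac2.

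Padi4 differed in CPM most between secondary-granule precursors and Olfm4/Mmp9 neutrophils, but as a ratio most between the precursor clusters, as did Cybb. It had 15.8 CPM in azurophil precursors (9.74 to 18.9 CPM over 8 libraries), 202 CPM in secondary-granule precursors (164 to 307 CPM over the 6 libraries with at least 20 such cells), 552 CPM in Olfm4/Mmp9 neutrophils (251 to 690.0 CPM over 6 libraries) and 436 CPM in Cxcl2/Il1b neutrophils (277 to 636 CPM over 8 libraries). Acod1 and Sod2 differed in CPM most between the neutrophil clusters, and Sod2 was about as high in the first cluster as in the last. Acod1 had 0.350 CPM in azurophil precursors, 12.8 CPM in secondary-granule precursors, 9.89 CPM in Olfm4/Mmp9 neutrophils and 391 CPM in Cxcl2/Il1b neutrophils. The last value ranged from 143 to 890.0 CPM over 8 libraries, and that in Olfm4/Mmp9 neutrophils from 4.39 to 119 CPM over 6 libraries. Sod2 had 102, 70.3 and 28.7 CPM in the first 3 of these clusters and stood at 101 CPM in Cxcl2/Il1b neutrophils. The Olfm4/Mmp9 neutrophils of WT food allergy were an exception, with 108 CPM of Sod2, against 21.1 to 37.5 CPM in the other 5 libraries. App NL-G-F acute colitis gave 1266 of the 2431 Olfm4/Mmp9 neutrophils and so weighs most in their pooled values. Olfm4/Mmp9 neutrophils and secondary-granule precursors of WT control and WT acute colitis numbered under 20 cells, so no value is given for them.

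**Figure D3:**
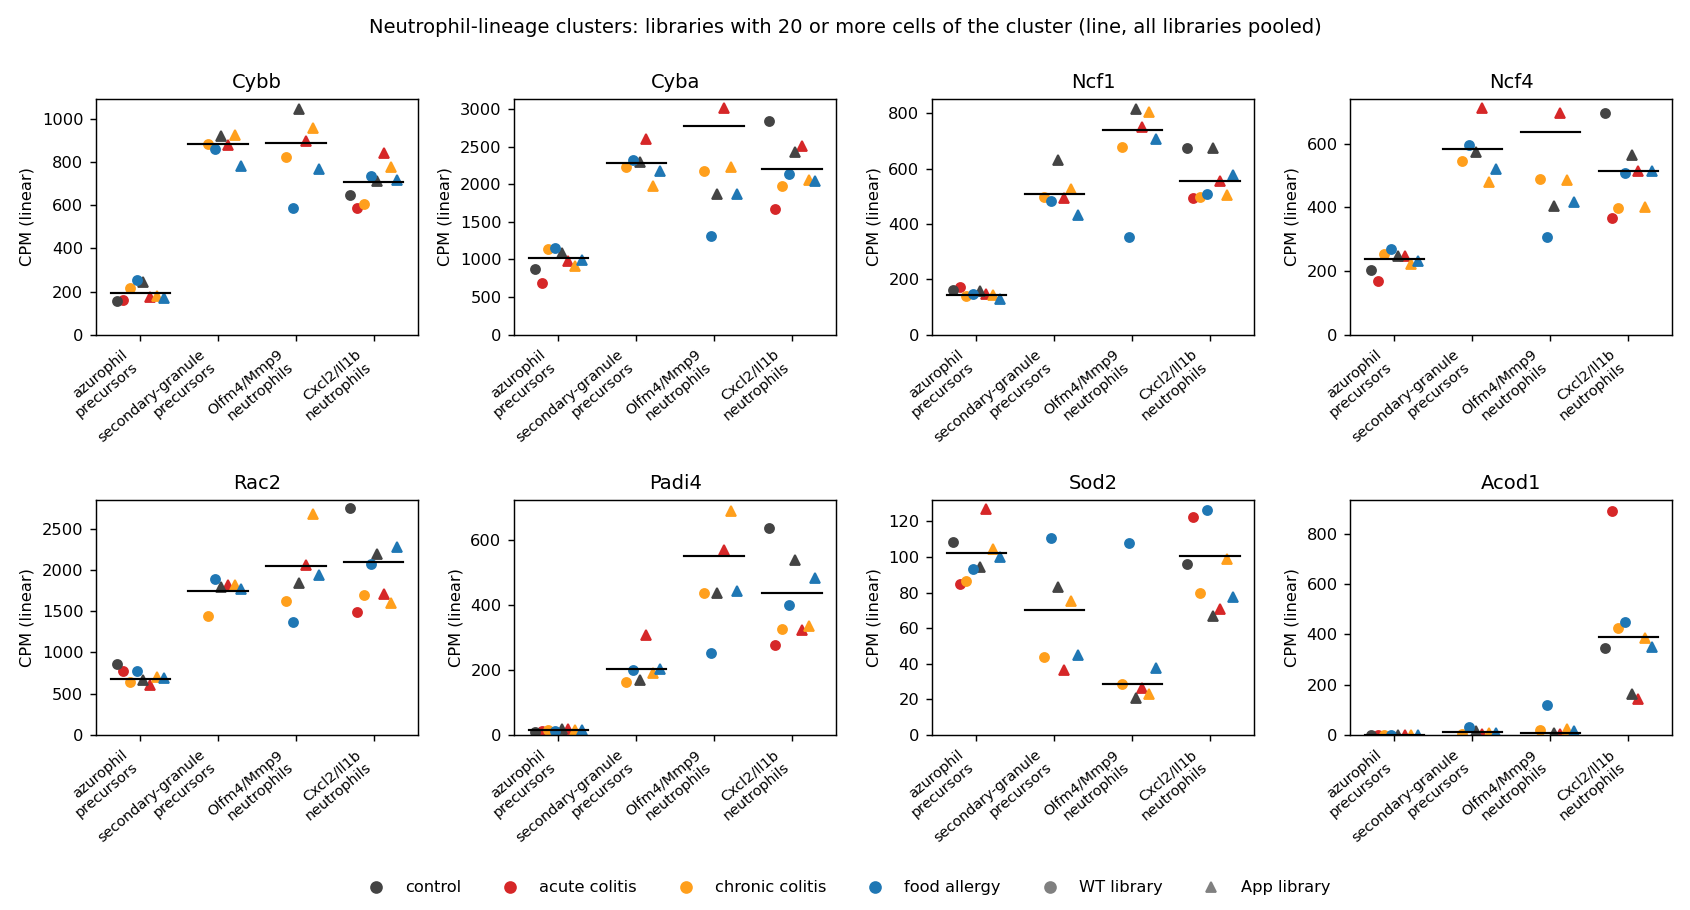
Level (CPM, linear axis) of the 8 genes in 4 clusters of the neutrophil lineage; points are libraries with at least 20 cells of the cluster (circles WT, triangles App NL-G-F) and lines the value pooled over libraries. Padi4 goes from 15.8 to 202 and 552 CPM along the first 3 clusters, while Acod1 is at 391 CPM in the Cxcl2/Il1b neutrophils and at or below 12.8 CPM in the other 3.

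Cell types outside the 5 classes, and some lymphocytes, also held oxidase transcripts. Plasmacytoid dendritic cells, the interferon-producing dendritic cells, had 517 CPM of Cybb (442 to 646 CPM over libraries) and 227 CPM of Ncf1 (193 to 302 CPM). Basophils had 219 CPM of Ncf1 (145 to 306 CPM). Among the lymphocytes, B cells had 123 CPM of Cybb (108 to 159 CPM) and 141 CPM of Ncf1 (102 to 157 CPM), against 8.86 and 5.86 CPM in CD4 T cells. Over 20 cell types and 7281 genes, the transcript whose level was most like that of Padi4 was Fosl1 (Pearson's r of log2 CPM = 0.93), followed by Cxcr2 and Mettl9. For Acod1 the nearest were Fmo5 (r = 0.94), Fpr1 and Fosl1, for Ncf1 Nfam1 (r = 0.92) and Spi1, and for Cybb Aldh3b1 (r = 0.91), Pirb and Sirpa. The nearest to Cyba and Ncf4 were AB124611 (r = 0.83 for both) and each other. Rac2 was nearest to S1pr4 (r = 0.90), Slc9a3r1 and Ripor2, and Sod2 to Acaa2 (r = 0.84), Slc16a10 and Hnrnpll. The types share libraries and the r values carry no test.

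Acod1 and Sod2 moved together among the neutrophils of different hashtag groups. The hashtag groups of these libraries fall apart in the summed level of 10 immediate-early genes (Fos, Jun, Egr1 and others that respond within minutes to handling or stimulation), measured in T cells so that neutrophils do not enter. In 14 groups this sum was 622 to 1637 CPM (low) and in 16 groups 3298 to 6276 CPM (high), with nothing in between. At least 20 neutrophils were present in 23 groups. Of these 7 were low, all of them in App NL-G-F libraries, and 16 were high, including 2 groups of each WT library. The low groups of the WT libraries held under 20 neutrophils each. The sets were drawn from the data, so their values are a description.

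Acod1 in neutrophils was 4.17 to 39.5 CPM in the 7 low groups (median 10.9 CPM) and 167 to 1115 CPM in the 16 high groups (median 391 CPM), a ratio of medians of 36.0 without overlap. The low values rest on 1 to 64 Acod1 UMIs per group. Sod2 was 0 to 29.8 CPM in low groups (median 15.9 CPM) and 45.7 to 161 CPM in high groups (median 79.5 CPM), a ratio of 5.01 without overlap. The Sod2 value of 0 belongs to a group of 43 neutrophils in App NL-G-F control, where a count of 0 allows up to 28.2 CPM. The other 6 genes overlapped between the sets over all libraries. Their ratios of medians, high over low, were 0.81 for Cybb, 0.68 for Ncf1, 0.78 for Padi4, 0.97 for Rac2, 1.03 for Ncf4 and 1.11 for Cyba. Cells of the Cxcl2/Il1b cluster made up 54.4% to 100% of the neutrophils in high groups and 0% to 4.65% in low groups. From such sums alone, fewer cells of a type and less RNA per cell cannot be told apart. Pooled over libraries, 58.2% of Cxcl2/Il1b neutrophils held an Acod1 UMI (391 CPM) and 6.17% of Olfm4/Mmp9 neutrophils (9.89 CPM). Within WT chronic colitis, which held both clusters, Acod1 was 424 and 18.7 CPM in the same order. Whether levels within a cluster differed between the sets was not tested.

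The sets were also compared within the 4 App NL-G-F libraries, each of which held both. Acod1 and Sod2 were higher in the high groups without overlap in 4 of 4, and Ncf1 was lower in the high groups without overlap in 4 of 4. In the control library, Acod1 was 18.8 and 10.9 CPM in the low groups and 167 and 170 CPM in the high groups. In chronic colitis it was 9.84 and 39.5 CPM in low groups and 393 and 407 CPM in high groups. In food allergy it was 10.9 and 8.66 CPM in low groups and 255 and 527 CPM in high groups. In acute colitis, the single low group held 1175 of the 1378 neutrophils of the library and had 4.17 CPM, while the high groups, with 47 and 38 neutrophils, had 335 and 168 CPM. Sod2 in that library was 26.3 CPM in the low group and 55.8 and 53.0 CPM in the high groups. Ncf1 was 827 and 890.0 CPM in the low and 706 and 723 CPM in the high groups of control, and 760.0 against 425 and 619 CPM in acute colitis. It was 869 and 847 against 456 and 535 CPM in chronic colitis, and 695 and 844 against 629 and 558 CPM in food allergy. Cybb was lower in the high groups in 3 of 4 libraries and overlapped in chronic colitis. Padi4 was lower in the high groups of acute and chronic colitis and overlapped in the other 2 libraries. Cyba, Ncf4 and Rac2 were each higher in the high groups of some libraries and lower in those of others.

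**Figure D4:**
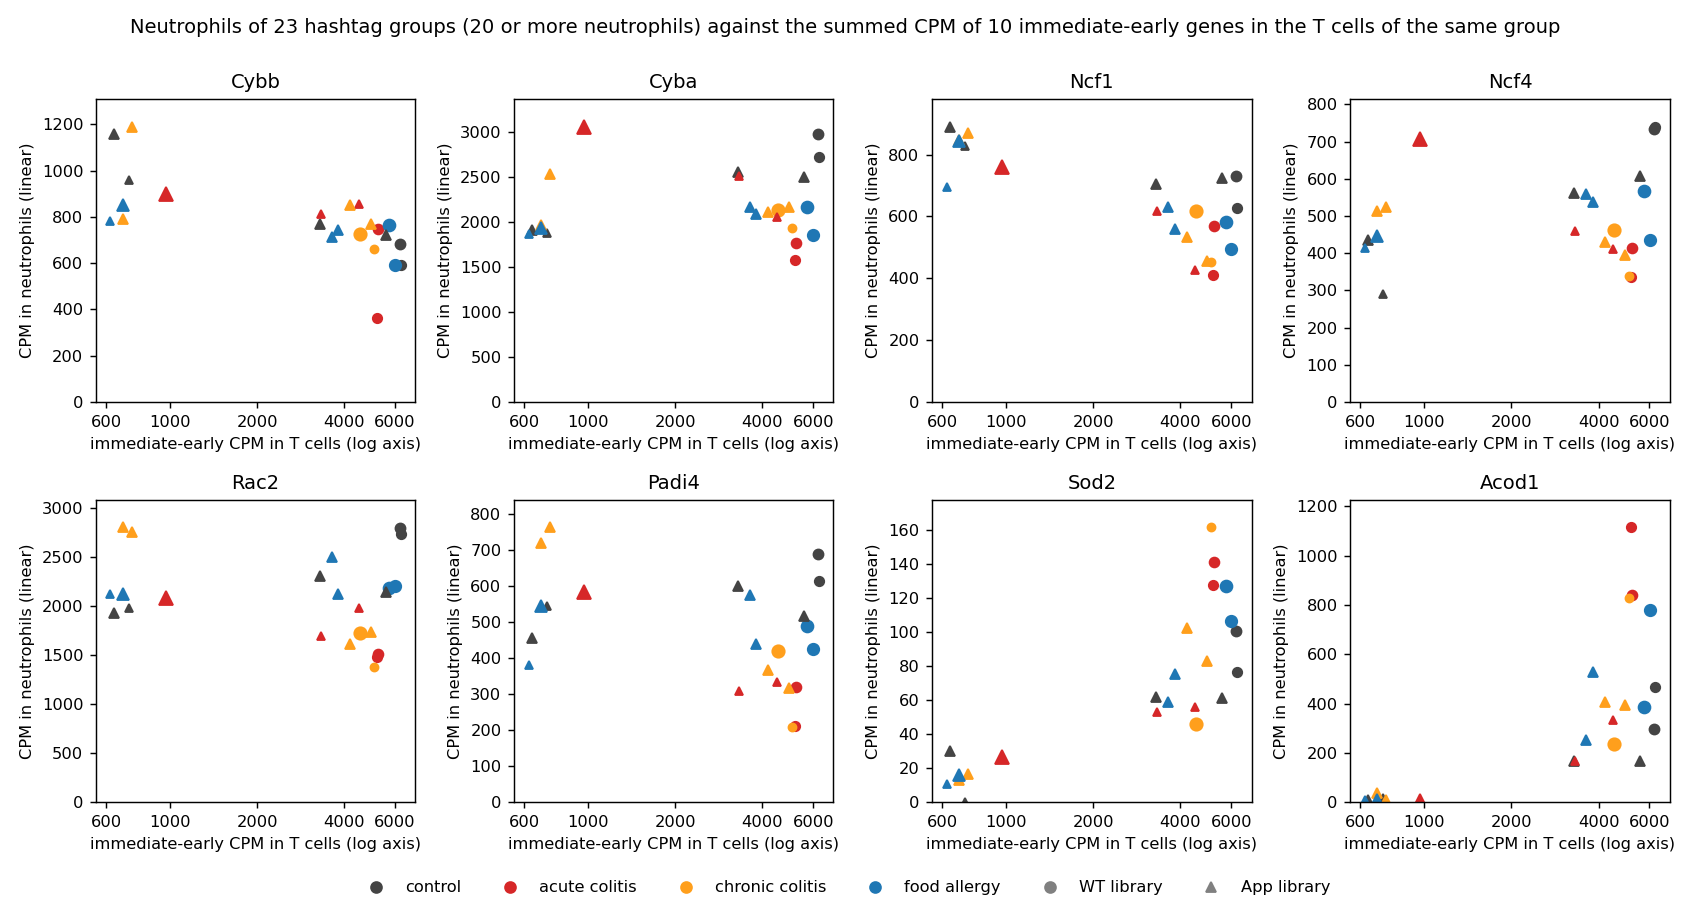
Level (CPM, linear axis) of the 8 genes in the neutrophils of 23 hashtag groups against the summed CPM of 10 immediate-early genes in the T cells of the same group (log axis); circles are WT, triangles App NL-G-F, colours are conditions and size grows with the number of neutrophils. Acod1 and Sod2 do not overlap between the 7 groups on the left and the 16 on the right, and the other 6 genes do over all groups, although Ncf1 does not within any of the 4 App NL-G-F libraries.

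The sequences before the start sites are shown for Padi4, whose level in neutrophils overlapped that of no other of the 5 classes, and for Acod1 and Sod2, which moved together with the immediate-early level. Ncf1 and Rac2 shared this trait of Padi4, and their sequences are not shown. Immediate-early genes of the Fos and Jun families encode the subunits of AP-1, which is known to bind TGACTCA. RefSeq promoters were matched for 6 of the 8 genes, and each line gives the 215 bases from 250 to 36 before the RefSeq start, 5′ to 3′ on the strand of the gene (GRCm38.p6). They lie at chr4:140774239-140774453 (minus), chr14:103046762-103046976 (plus) and chr17:13007589-13007803 (plus), the last within the annotated limits of Sod2. Capitals mark matches to TGACTCA (AP-1), GAGGAA (the core bound by PU.1 and other ETS factors) or TTCNNNGAA (STAT), searched on both strands.
Padi4: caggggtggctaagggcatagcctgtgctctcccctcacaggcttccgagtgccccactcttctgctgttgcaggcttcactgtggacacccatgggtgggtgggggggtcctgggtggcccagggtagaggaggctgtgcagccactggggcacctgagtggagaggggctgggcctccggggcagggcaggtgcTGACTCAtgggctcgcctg
Acod1: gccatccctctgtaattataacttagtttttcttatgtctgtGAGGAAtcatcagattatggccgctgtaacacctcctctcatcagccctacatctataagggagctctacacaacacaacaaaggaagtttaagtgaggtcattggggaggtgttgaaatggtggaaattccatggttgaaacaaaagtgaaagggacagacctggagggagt
Sod2: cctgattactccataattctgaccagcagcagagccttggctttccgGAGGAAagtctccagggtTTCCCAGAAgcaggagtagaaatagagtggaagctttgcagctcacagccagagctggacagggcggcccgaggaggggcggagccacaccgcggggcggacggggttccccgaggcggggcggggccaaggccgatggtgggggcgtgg
Padi4 held TGACTCA 47 bases before its start, a motif found in 4.46% of the 32851 promoters of the same length. TGACTCA was not found in the 250 bases before Acod1 or Sod2. Acod1 and Sod2 each held GAGGAA, 202 and 197 bases before the start, as did 23.3% of all promoters. Sod2 also held TTCNNNGAA 176 bases before its start (7.02% of promoters), and Ncf1 held it 79 bases before its start. The motif GGGANTTCC of NF-kB, the inflammatory transcription factor, was not found in the 250 bases before any of the 6 genes and is in 1.43% of promoters. The short ETS core GGAA, which GAGGAA contains, was in 93.4% of promoters. A match is a description of letters, not of a bound site.

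Whether colitis or food allergy went with a change of these genes in neutrophils was tested over the 23 hashtag groups with edgeR, in 5851 genes. Each contrast set the groups of a treated library against those of the control library of the same genotype, so the p-values measure the spread between hashtag groups. Since groups of App NL-G-F chronic colitis share animals, and others may, these p-values can be too small. None of the 8 genes passed at an adjusted p of 0.05 in any of 7 contrasts. Of all genes, acute colitis in WT called 2.56%, chronic colitis 0.803% and food allergy 0.359%. In App NL-G-F it was 0% for acute colitis (198 genes had an unadjusted p under 0.05, and DESeq2 called 1) and 0.0171% each for chronic colitis and food allergy, and App NL-G-F control against WT control gave 0.82%. The contrasts of 1 genotype share their control groups.

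The largest ratios among the oxidase genes were in WT acute colitis, where all 5 and Padi4 had lower estimates. Padi4 was 689 and 613 CPM in the control groups and 319.8 and 213 CPM in the acute colitis groups, without overlap (log2 ratio -1.44 ± 0.48, edgeR, adjusted p = 0.0892). Rac2 was 2797 and 2729 CPM in control and 1511 and 1479 CPM in acute colitis (-1.06 ± 0.32, edgeR, adjusted p = 0.0670). Ncf4 was 733 and 739.8 CPM against 414 and 336 CPM (-1.14 ± 0.41, edgeR, adjusted p = 0.117), and Cyba 2968 and 2718 CPM against 1763 and 1579 CPM (-0.94 ± 0.31, edgeR, adjusted p = 0.0893). Ncf1 (-0.62 ± 0.35) and Cybb (-0.33 ± 0.32) had smaller estimates. Acod1 was 299 and 468 CPM in control and 839 and 1115 CPM in acute colitis (1.15 ± 1.54, edgeR, adjusted p = 0.696). Before adjustment, p was under 0.05 for 4 of the 8 genes (Rac2, Padi4, Cyba and Ncf4) and for 1259 of all genes. DESeq2 called 3 of the 8 there (Rac2, Padi4 and Cyba, 3.66% of genes called) and none in the other contrasts, where it called 1.04% (WT chronic colitis), 0.547% (WT food allergy), 1.13% (between controls) or 0.0171% of genes (each App NL-G-F condition). Leaving out any 1 of the 4 hashtag groups behind this contrast left 0 of the 8 called and 11 to 52 of all genes, against 150.

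Chronic colitis in WT had estimates of -0.95 ± 0.47 for Padi4 and -0.79 ± 0.32 for Rac2, and its groups differed from each other. Padi4 was 420.2 CPM in the group of 535 neutrophils and 208 CPM in the group of 33, and Acod1 238 and 830.1 CPM. In WT food allergy Padi4 was 489 and 426 CPM (-0.43 ± 0.46) and Acod1 388 and 779 CPM. In App NL-G-F the estimates of the oxidase genes and Padi4 lay between -0.34 and 0.19 in all 3 conditions, with SE of 0.22 to 0.36. Acod1 had SE of 1.12 to 1.31 there, so differences of several-fold were not detectable at this spread. App NL-G-F control against WT control had estimates of 0.57 ± 0.28 for Cybb, -0.19 ± 0.40 for Padi4 and -1.72 ± 1.30 for Acod1. The difference between the WT and App NL-G-F effects was called for none of the 8 genes (0.957%, 0.427% and 0.171% of genes called for acute colitis, chronic colitis and food allergy). Among the listed genes outside the 8, Mpo in WT food allergy was the only one called (3.98 ± 0.86, edgeR, adjusted p = 0.0454), with a median of 3.47 CPM over the neutrophils of all libraries.

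With the set as a term in the fit, 2 of the 8 genes were called in WT acute colitis (Rac2 and Padi4, 8.08% of genes called) and none in the other contrasts, where 1.78%, 0.974%, 0.103%, 0.0171% or 0.923% of genes were called. The contrasts were run again in the 16 high groups alone, a choice made after seeing the data. In WT acute colitis 6 of the 8 genes were then called, where 21% of genes were called (10% higher, 10.9% lower). Padi4 (-1.47, edgeR, adjusted p = 0.000636), Ncf4 (-1.18), Rac2 (-1.11), Cyba (-0.99) and Ncf1 (-0.67) were lower, and Acod1 was higher (1.11, edgeR, adjusted p = 0.0492). In WT chronic colitis Padi4 (-0.86), Rac2 (-0.80) and Ncf4 (-0.79) were lower (14.1% of genes called, 7.66% lower). In App NL-G-F chronic colitis Padi4 (-0.93), Ncf1 (-0.76), Ncf4 (-0.73) and Rac2 (-0.64) were lower (8.62% called, 5.43% lower). None of the 8 was called in App NL-G-F acute colitis (3.71% called), App NL-G-F food allergy (0.035%), WT food allergy (5.38%) or between the controls (1.47%).

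The depth of the neutrophils was lower in the groups behind these calls, but also in groups without a call. WT control groups had 9419 and 7776 UMIs per neutrophil and WT acute colitis groups 3246 and 2678, WT chronic colitis 5395 and 3942. The high groups of App NL-G-F control had 9448 and 10771 UMIs per neutrophil, and those of chronic colitis 3130 and 3197. Those of acute colitis, where none of the 8 was called, had 3052 and 2977. There Padi4 was 335 and 309 CPM, against 599.8 and 516 CPM in control (-1.03 ± 0.30, edgeR, adjusted p = 0.0552), so it missed the threshold with an estimate close to that of chronic colitis. In food allergy, likewise without a call, the high groups had 9217 and 4644 UMIs per neutrophil in WT and 8305 and 6318 in App NL-G-F. Among all 16 high groups, Padi4 was 489 to 689 CPM in the 6 with the most UMIs per neutrophil (7776 to 10771) and 208 to 366 CPM in the 7 with the fewest (2678 to 3942). Among the 7 low groups, Padi4 was 584 to 763 CPM in the 3 with the most UMIs per neutrophil (5838 to 13058) and 380.03 to 545 CPM in the 4 with the fewest (2475 to 3123). Between these deepest and shallowest groups, depth went with condition in each set, but in opposite directions. The 7 shallow high groups were all from colitis libraries and the 6 deep ones from control or food allergy, while the 3 deep low groups were from colitis libraries and the 4 shallow ones from control or food allergy. The high groups of intermediate depth did not follow this split. A WT chronic colitis group had 5395 UMIs per neutrophil and Padi4 at 420.2 CPM. Food allergy groups had 4644 UMIs and 426 CPM in WT and 6318 UMIs and 439 CPM in App NL-G-F. Among the low groups, and between the deepest and shallowest high groups, depth and condition cannot be told apart. When the UMIs per neutrophil of each group were added to the fit as a term, also a choice made after seeing the data, none of the 8 genes was called in any contrast, over all groups or in the high groups alone. Over all groups the shares of genes called were then 0.923% (acute), 1.03% (chronic) and 0.735% (allergy) for WT. The App NL-G-F shares were 0.0342%, 0.0171% and 0.0171%, and 1.21% was called between the controls. In the high groups alone they were 1.1%, 5.41% and 4.05% in WT, 0% for all 3 in App NL-G-F, and 1.51% between the controls. In the high groups Padi4 then had an estimate of -0.57 ± 0.45 (edgeR, adjusted p = 0.702) in WT acute colitis, and Acod1 turned from 1.11 to -1.11 (edgeR, adjusted p = 0.399). How far depth accounts for the calls was not tested beyond this term.

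**Figure D5:**
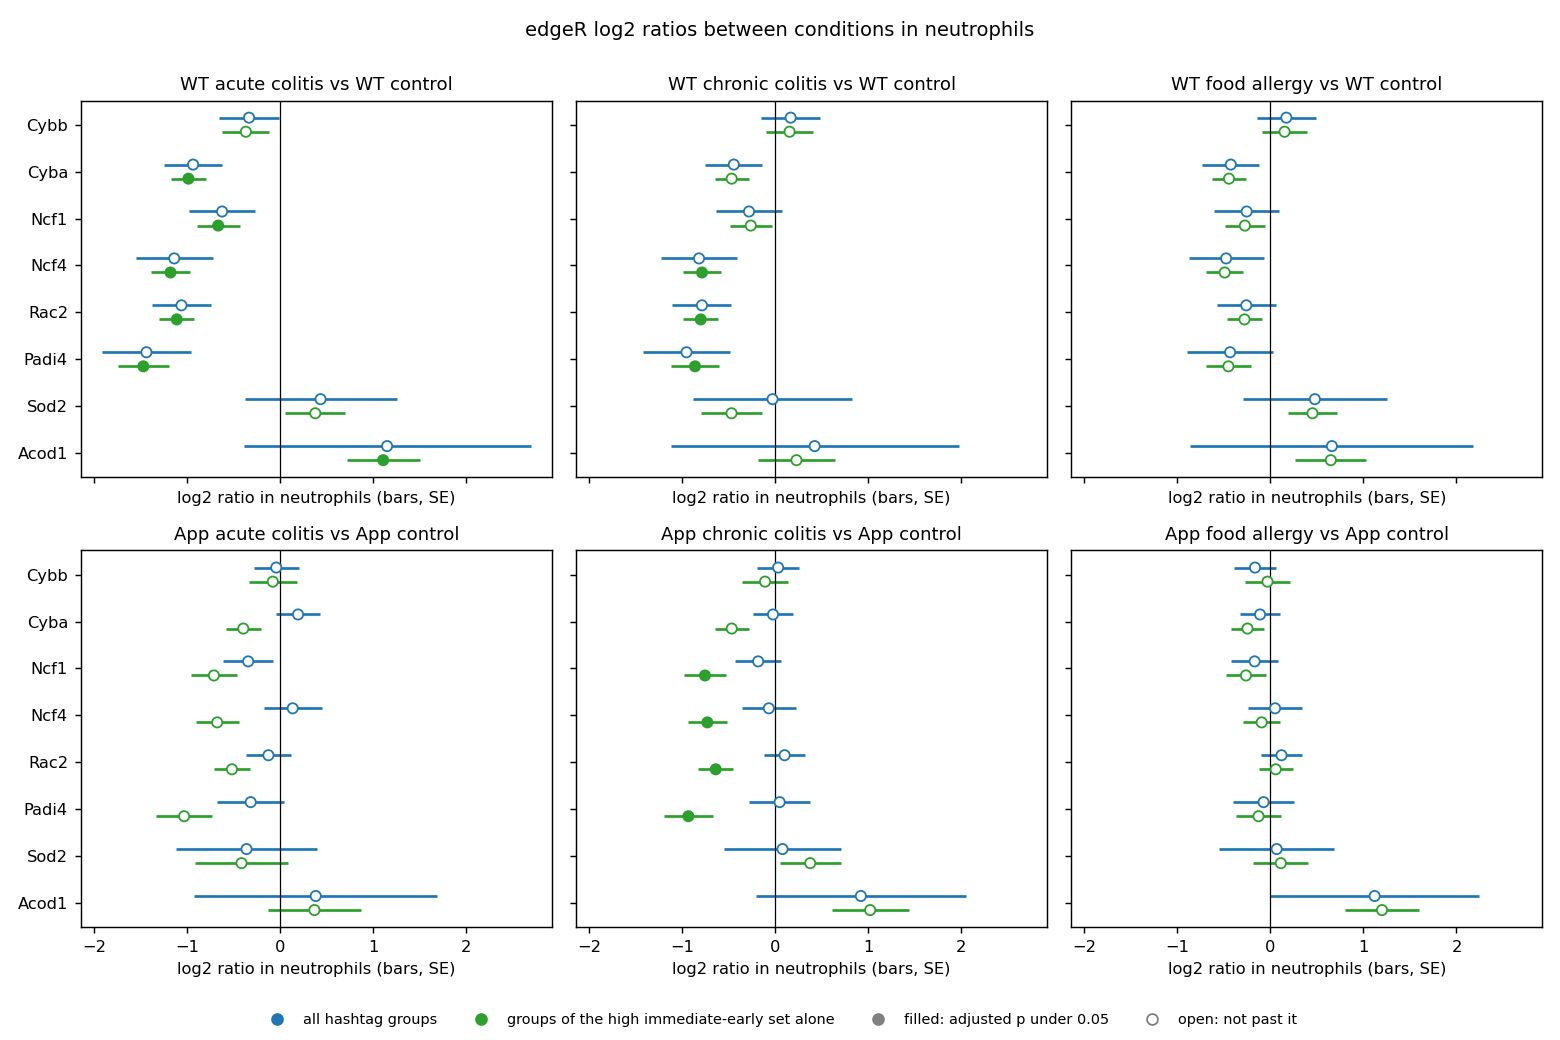
Log2 ratios (x axis, bars are SE) of the 8 genes in neutrophils between each treated library and the control library of its genotype, over all 23 hashtag groups (blue) and over the 16 high groups alone (green); filled points passed an adjusted p of 0.05. No blue point is filled, and the green filled points are in WT acute colitis (6), WT chronic colitis (3) and App NL-G-F chronic colitis (4).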

How the data were processed

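The authors prepared 8 libraries with the 10x Genomics 5′ kit and deposited raw UMI counts per gene and barcode, without normalization, made with Cell Ranger on mm10. The submitters' notes name version 6.1.2, and the matrix headers name Cell Ranger 4. Cells were called anew with an order-of-magnitude rule (3000 expected cells) and an ambient test (at least 500 UMIs, false discovery rate 0.01), and cells with under 200 genes or over 5% mitochondrial UMIs were left out. Clustering used 2000 variable genes, 30 components, 20 neighbours and Leiden resolution 0.5. Of 27 clusters 3, with 435 cells, remained unnamed. Doublets were handled through hashtags. The 4670 cells with several hashtags and the 1503 with none entered the class values, were left out of hashtag groups, and were left out of all values in an alternative.

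UMIs were summed per library and class, or per hashtag group with at least 20 neutrophils. These sums were tested with the quasi-likelihood test of edgeR 4.0.16 (TMM, filter on low counts, Benjamini-Hochberg over all genes tested, adjusted p under 0.05), with library as a block for classes. Standard errors are the log2 ratio divided by the root of F. CPM carries exact Poisson intervals at 95%, shares exact Clopper-Pearson intervals, and a count of 0 a limit of 3 counts. S100a8 and S100a9 in T cells put ambient UMIs at 0.202% to 0.800% of a cell's UMIs at most. The tests were checked on simulated counts. For neutrophils against monocytes (11827 genes) 80.2% of genes changed 2-fold and 92.6% changed 4-fold were recovered, and with 23 hashtag groups, for the acute colitis contrast of App NL-G-F (5851 genes), 10% and 65%. Of the calls made on these simulated counts 4.44% and 7.41% were false, the latter above the nominal level.

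The members and gene lists were chosen with earlier results of these data known. Named genes are the 8 members, listed genes as examples, leading genes of clusters, and the 3 genes most correlated with each member in log2(CPM + 10) over 20 cell types, among genes with at least 50 CPM in some type. Promoters are from RefSeq (GRCm38.p6), and gene limits from GENCODE vM21 on GRCm38. Alternatives covered normalization, DESeq2 1.42.0, filters, cell calls, clustering resolution, hashtag rules, group sizes and leaving out each hashtag group. R 4.3.3, Python 3.11.15, scanpy 1.11.5 and leidenalg 0.10.2 were used. One listed gene is not reported here by name.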

Additional observations from a re-analysis of the deposited data

Results flagged for a closer look

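Within App NL-G-F food allergy, Rac2 in neutrophils was 2501 CPM in 1 high hashtag group, while the other 3 groups had 2116, 2117 and 2125 CPM. Its gap to the nearest group was 0.976 of the range. This was 1 of 24 sets of 4 groups examined, and chance flags about 1 in 20.

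Padi4 and Acod1 were also seen outside the 5 classes, at a level, pooled over libraries, of over 10 times that in T cells (1.09 and 0.530 CPM). Padi4 was 73.5 CPM in basophils, with libraries from 19.4 to 120 CPM, and 27.5 CPM in hematopoietic progenitors (13.8 to 32.8 CPM). It was 33.1 CPM in fibroblasts (library median 7.22, range 0 to 94.2 CPM over 5 libraries) and 22.3 CPM in erythroid cells (library median 0, range 0 to 31.2 CPM over 3 libraries). Acod1 was 22.97 CPM in basophils (65 UMIs in 449 cells, 3.62 to 69.6 CPM over 7 libraries) and 15.5 CPM in mast cells (15 UMIs in 307 cells, library median 0, range 0 to 71.7 CPM over 7 libraries). The pooled values of Padi4 in fibroblasts and erythroid cells and of Acod1 in mast cells thus rest on few libraries. Padi4 in mast cells also passed this level (17.5 CPM, 17 UMIs, library median 19.6, range 0 to 39.5 CPM). So did Acod1 in fibroblasts (7.35 CPM, 14 UMIs, library median 0, range 0 to 21.7 CPM). The part of free RNA or of doublets with neutrophils in these values was not tested.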

How the results depend on the processing

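Between classes, 249 of 252 values of the 8 genes under the alternative settings kept their direction and their side of the threshold, and 3 lost the call. These were Sod2 against monocytes without a filter (0.18, edgeR, adjusted p = 0.459) and at resolution 1 (0.31, edgeR, adjusted p = 0.0975), and Rac2 in monocytes against macrophages with the order-of-magnitude rule alone (0.15, edgeR, adjusted p = 0.299). With totals in place of TMM, chosen after seeing the data, Sod2 reversed against precursors (-0.46) and monocytes (-0.64).

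Between conditions, 440 of 448 values were unchanged in call and 8 gained one. The count of members called in WT acute colitis, 0 over all groups, was 3 with DESeq2, 3 with at least 50 neutrophils, 2 with the set as a term and 6 in the high set alone. The high set alone gave 3 in WT chronic colitis and 4 in App NL-G-F chronic colitis, where Rac2 (-0.64) and Padi4 (-0.93) reversed from 0.10 and 0.05. Leaving out each hashtag group in turn gave 0 to 0 members in every contrast. Over all genes, the count in WT acute colitis was 150, and 324 with at least 50 neutrophils, 473 with the set as a term, 1196 in the high set, 54 with UMIs per neutrophil as a term and 63 with both. WT chronic colitis went from 47 to 148 with precursors counted in, 104 with the set as a term, 807 in the high set and 309 with depth added. WT food allergy went from 21 to 32 with DESeq2, 11 with the other hashtag rule, 47 with precursors, 57 with the set as a term, 4 on totals, 307 in the high set, 43 with depth and 231 with both. The controls went from 48 to 26 without a filter, 182 with precursors, 84 in the high set and 86 with depth added. App NL-G-F contrasts gave 0, 1 and 1 for acute colitis, chronic colitis and food allergy, with 212, 492 and 2 in the high set and 0 to 7 under the other settings. Leaving out 1 hashtag group gave 11 to 52 in WT acute colitis, 11 to 30 in WT chronic colitis, 0 to 4 in WT food allergy, 16 to 48 between the controls and 0 to 1 in each App NL-G-F contrast. The cause of these shifts was not tested.

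The median share of neutrophils with a UMI moved with depth. Thinned to 500 UMIs it was 25.1% for Cybb, 62.0% for Cyba, 25.0% for Ncf1, 20.6% for Ncf4, 62.7% for Rac2 and 21.3% for Padi4. Without thinning it was 69.6%, 96.0%, 81.4%, 75.4%, 94.4% and 75.1% in the same order, 21.1% for Sod2 and 36.0% for Acod1. The class comparisons had the library as a block. No paired analysis was possible because, between conditions, each condition is 1 library and hashtag numbers are not tied to mice in the labels.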
